A study of Mus musculus with 4 samples.

Results

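OL-only regions inside gene bodies are stretches of accessible chromatin that were listed as peaks in oligodendrocytes (OLs) of both cell lines studied and in oligodendrocyte progenitor cells (OPCs) of neither, and that lie within protein-coding genes away from the gene ends. Overlapping or touching peaks of the 4 deposited lists were merged into 229743 regions. A region was a member where both OL lists and no OPC list had a peak of at least 1 bp in it. Its midpoint also had to lie inside a RefSeq protein-coding gene interval of GRCm38.p6, the assembly named mm10, and more than 1 kb from either end of any such gene. This rule found 22213 members, or 19.1% of the 116034 regions inside gene bodies. OPC-only regions, by the converse rule, were 10752 (9.27%), and 23988 gene-body regions had a peak in all 4 lists. The lists differed in length, with 129534 peaks in 129O1 OPCs, 125002 in EpiSC5 OPCs, 127196 in 129O1 OLs and 152595 in EpiSC5 OLs. The part of list length in these counts was not tested. Members were thus chosen by the presence of OL peaks and the absence of OPC peaks, and every contrast of OLs with OPCs inside them is a description and carries no test.

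The cells were mouse OPCs grown from epiblast stem cells, which are pluripotent and come from the early embryo, and OLs sorted for the surface antigen O1. Each of the lines 129O1 and EpiSC5 gave 1 OPC and 1 OL library, so n = 2 in each group. The labels name the source strains 129SvEv and 129S1/SvImJ and tie them to the lines only by the order of the names. Open chromatin was mapped with Omni-ATAC-seq, a method whose transposase, Tn5, cuts and tags accessible DNA, and the comparison asks where chromatin differs between the progenitor and the differentiated cell. Per the labels' protocols, OPCs of both lines were kept without SHH (sonic hedgehog) in a medium with N2 Max, B27, 20 ng/mL bFGF and 20 ng/mL PDGFA, passaged 4 times, then sorted with antibodies to CD140a and NG2 and expanded. The labels do not describe the differentiation steps that led to OLs. Each library came from 50000 cells, with transposition for 30 min at 37 °C and a stated 100 M single-end reads of 50 bp. The labels do not say whether libraries came from separate cultures, so any spread between them may be technical. The lists hold no read counts, so depth is unknown. Where a list has no peak, the signal stayed under the caller's threshold, which does not show closed chromatin. In bulk libraries, fewer cells open at a site and less opening per cell cannot be told apart.

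OPCs are dividing glial cells that leave the cycle, extend processes and become myelin-forming OLs. Much of the chromatin that opens when a cell type differentiates lies away from gene starts, often in introns, where transcription factors bind distal regulatory elements. In the OL lineage Olig2, Sox10 and Myrf are known to bind such elements of myelin genes.

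The libraries were set against marker genes of the cell types they could hold, as kb of gene-body sequence under peaks, scaled to the mean list total. The 10 OL markers together had 7.19 kb in the 129O1 OPC library and 8.98 kb in the EpiSC5 OPC library, against 16.9 and 18.9 kb in the OL libraries of those lines. They held 24 members and 3 OPC-only regions, and 7 of the 10 held a member. Of these markers Ugt8a, the enzyme that makes galactosylceramide, held 6 members, Enpp6 5 and Myrf 2, whereas Mog, Mobp and Cnp held none. The 6 OPC markers had 17.8 and 17.1 kb in OPCs and 21.2 and 22.5 kb in OLs, so the OPC libraries were not the higher ones. Among them Pdgfra held 3 members and the chondroitin sulfate proteoglycan gene Cspg4 none. The neuron list had 21.2 and 25.1 kb in OPCs and 21.4 and 21.1 kb in OLs, and it held 26 members in 5 of 6 genes. The microglia list had between 2.08 and 2.37 kb in every library and held 3 members. Tmem119 and Cldn5 had no covered gene-body sequence in any library. Sequence within 1 kb of a gene end is left out, however, so a short gene has little or no body to cover. Other genes of these lists were covered in every library, Csf1r with 0.952 to 1.59 kb, P2ry12 with 0.351 to 1.04 kb and Pecam1 with 1.64 to 2.46 kb. Cx3cr1 had 0 kb in both 129O1 libraries. The values of Tmem119 and Cldn5 therefore do not show that microglia or vessel cells were absent. The 6 vascular and mesenchymal genes together had 7.54 and 8.25 kb in OPCs of 129O1 and EpiSC5 and 3.43 kb in each OL library, so both OL libraries lay well below the OPC libraries, and they held 1 member and 14 OPC-only regions. The astrocyte list had 8.94 and 9.71 kb in OPCs, 7.21 and 8.62 kb in OLs, and 6 members. The part of other cell types in the members was not tested.

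Sequence was at hand where members reach a gene start, since RefSeq's promoter table for GRCm38.p6 gives the bases around each listed transcript start. Of the 22213 members, 44 overlapped the stretch from 250 bases before to 50 bases after a listed start of their own host gene, always an internal start since gene ends were left out. This was 0.198% of members, against 0.977% of OPC-only regions and 6.40% of regions with a peak in all 4 lists. In 27 members the start base itself lay inside. The 250 bases before 6 of these starts follow, 5′ to 3′ on the gene's strand, with the bases inside the member in capitals. They were chosen after the values were seen, most of them as genes of signalling, membrane lipids or process growth.
Akt2: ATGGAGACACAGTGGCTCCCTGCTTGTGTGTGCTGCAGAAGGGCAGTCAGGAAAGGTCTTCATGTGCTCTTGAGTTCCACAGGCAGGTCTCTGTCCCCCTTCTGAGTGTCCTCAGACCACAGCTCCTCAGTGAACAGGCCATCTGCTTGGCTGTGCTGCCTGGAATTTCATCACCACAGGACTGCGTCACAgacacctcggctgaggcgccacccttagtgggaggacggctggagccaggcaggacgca
Chn2: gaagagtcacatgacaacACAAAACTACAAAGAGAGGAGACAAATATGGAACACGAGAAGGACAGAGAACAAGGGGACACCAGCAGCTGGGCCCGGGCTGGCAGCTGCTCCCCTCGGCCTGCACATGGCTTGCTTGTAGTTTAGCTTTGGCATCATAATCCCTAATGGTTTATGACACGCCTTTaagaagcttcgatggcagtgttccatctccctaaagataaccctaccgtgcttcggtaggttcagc
Cux2: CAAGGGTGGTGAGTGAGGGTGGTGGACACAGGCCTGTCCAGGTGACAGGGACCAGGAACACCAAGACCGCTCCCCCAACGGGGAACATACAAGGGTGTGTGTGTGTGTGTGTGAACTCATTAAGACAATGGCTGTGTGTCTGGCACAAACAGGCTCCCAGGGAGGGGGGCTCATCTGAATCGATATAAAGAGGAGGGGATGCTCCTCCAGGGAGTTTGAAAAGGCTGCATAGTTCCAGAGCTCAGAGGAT
Mtmr2: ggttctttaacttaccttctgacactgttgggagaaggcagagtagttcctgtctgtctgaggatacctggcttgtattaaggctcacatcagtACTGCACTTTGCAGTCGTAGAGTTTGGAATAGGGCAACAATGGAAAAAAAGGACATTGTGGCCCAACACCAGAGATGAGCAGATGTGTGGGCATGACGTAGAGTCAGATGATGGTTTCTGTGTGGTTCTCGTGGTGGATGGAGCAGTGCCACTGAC
Sema4d: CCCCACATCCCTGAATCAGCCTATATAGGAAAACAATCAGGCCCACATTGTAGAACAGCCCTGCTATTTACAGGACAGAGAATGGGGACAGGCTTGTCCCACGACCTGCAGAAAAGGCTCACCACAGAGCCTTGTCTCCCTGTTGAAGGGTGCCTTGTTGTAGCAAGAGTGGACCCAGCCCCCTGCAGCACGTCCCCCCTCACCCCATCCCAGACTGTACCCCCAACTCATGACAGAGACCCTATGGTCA
Sgms1: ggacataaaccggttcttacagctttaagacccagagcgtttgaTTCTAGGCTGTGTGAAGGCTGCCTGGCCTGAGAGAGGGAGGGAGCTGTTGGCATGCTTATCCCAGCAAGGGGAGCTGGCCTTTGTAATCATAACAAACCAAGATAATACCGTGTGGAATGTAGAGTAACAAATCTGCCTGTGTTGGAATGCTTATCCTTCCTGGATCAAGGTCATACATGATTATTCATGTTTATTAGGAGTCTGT

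Akt2 encodes a kinase of the insulin and growth factor pathway, and its member lay at chr7:27605534-27605737, about 14.2 kb into the gene, with a peak fold of 4.23 in the 129O1 OL list and 3.87 in the EpiSC5 OL list. Fold here is a column of the authors' lists that carries no header. It is taken, from its place in the layout of MACS2 peak files, as the linear enrichment of a peak over its local background. The member of Chn2, which encodes a Rac-regulating chimaerin, lay at chr6:54264626-54264791 with folds of 4.35 and 3.51. Cux2, a homeobox factor gene, had a member of 461 bp at chr5:122047650-122048110 that covered the whole stretch, with folds of 4.80 and 5.35. For Mtmr2, a phosphoinositide phosphatase gene, the member at chr9:13766636-13766870 had folds of 5.22 and 6.10. Sema4d, a transmembrane semaphorin gene, had its member at chr13:51748772-51749176 with folds of 3.97 and 4.98. The member at the internal start of Sgms1, which encodes a sphingomyelin synthase, lay at chr19:32349095-32349522 with folds of 5.46 and 6.88. In 4 of these 6 members the EpiSC5 list had the higher fold, and in those of Akt2 and Chn2 the 129O1 list did.

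The starts under members were poor in CpG. Over the 250 bases before the start, the 44 starts had a median of 3 CpG and a GC content of 48.8%, against 15 CpG and 61.6% for the 1788 protein-coding starts under gene-body regions with a peak in all 4 lists. All 32851 listed starts had medians of 6 CpG and 52.4%. At least 10 CpG were present at 4 of the 44 starts (9.09%) and at 37.8% of all listed starts. Motif letters were searched on both strands of the same 250 bases. Part of these bases often lay outside the member, so neither the CpG counts nor the matches describe member sequence alone. The E-box CATCTG was found at 12 of 44 starts (27.3%), among them those of Akt2, Cux2 and Mtmr2, and at 14.4% of all listed starts. The E-box CAGCTG was found at 11 (25%), Chn2 among them, against 13.0% of all. GGGCGG, the letters bound by SP and KLF factors, was found at 6 (13.6%) against 32.7%. The Sox letters ACAAAG were found at 7 (15.9%), with Chn2, Sgms1 and Sox6 among them, against 16.5%, and ACAATG at 7 (15.9%), with Cux2, Mtmr2 and Sema4d among them, against 10.7%. ACAATA was found at 5 (11.4%) against 8.17%, and the nuclear receptor letters AGGTCA at 8 (18.2%), with Sgms1 among them, against 14.0%. GGAATG (TEAD) was found at 5 starts (11.4%) against 12.6% of all, and TGANTCA (AP-1) at 2 (4.55%) against 6.75%. CTTTGAA (TCF/LEF) was found at 2 (4.55%) against 4.46%, and CAGGGGGC (CTCF) at 1 (2.27%) against 2.52%. The NFI palindrome, a longer CTCF motif, TGTGGTTT (RUNX) and GCGTGGGCG (EGR) had no match in these 44 windows. They were rare at all listed starts too, at 0.0365%, 0.0609%, 1.49% and 0.536% in that order, so their absence here says little. Matches of different motifs can share bases, and a match is a run of letters, not a shown binding site. A match can also lie outside the member. Among the starts with ACAATA, Pla2g12a and Sv2b had 0 of the 250 bases inside the member and Ppp2r3a had 1, whereas Aven had 120.

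Members also overlapped 13 microRNA hairpins, where 560 hairpins had their midpoint inside a gene body. The other classes overlapped hairpins too, such as Mir5110 and Mir3092 in OPC-only regions and Mir148b and Mir199b in regions with a peak in all 4 lists. Overlap with hairpins is thus not particular to members. Mature sequences of a pair of these loci are shown, Mir107 because its whole hairpin lay inside a strong member and Mir338 because miR-338 is known to be made by OLs and to favour their differentiation. Capitals mark the seed, bases 2 to 8, and U stands for T.
mmu-miR-107-3p: aGCAGCAUuguacagggcuauca
mmu-miR-107-5p: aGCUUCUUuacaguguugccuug
mmu-miR-338-3p: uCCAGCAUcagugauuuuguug
mmu-miR-338-5p: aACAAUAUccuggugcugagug
None of these 4 seeds was identical to another of them, but those of miR-107-3p and miR-338-3p differed only in the first base of the seed. The member at Mir107 lay in Pank1, a pantothenate kinase gene, at chr19:34820580-34820835, and its folds were 11.1 and 14.1 in the 129O1 and EpiSC5 OL lists. The member at Mir338 lay in Aatk, an apoptosis-associated kinase gene, at chr11:120014858-120015028, and covered 5 of the 98 bp of the hairpin at its 5′ edge, outside both mature arms. Its folds, 2.74 and 3.76, were below the median member in both lists. In Pdgfra, the receptor for PDGFA, a member at chr5:75176891-75177134 covered 14 bp of Mir7025 with folds of 13.1 and 15.2. Whole hairpins also lay inside members of Ccdc88c (Mir1190), Zmiz1 (Mir3075), Akt1 (Mir6939) and Ephb1 (Mir7243).

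Members were narrower than open sites that OPCs also had, and their peaks had lower folds, more so in the 129O1 than in the EpiSC5 OL list. Their median width was 231 bp, with 5% below 123 bp, 5% above 526 bp and a widest member of 1571 bp, and together they covered 5.90 Mb. OPC-only regions had a median width of 267 bp and regions with a peak in all 4 lists 418 bp. The latter join peaks of more lists than members do, which widens them. Within the 129O1 OL list alone, the sequence under peaks had a median of 177 bp in members and 257 bp in regions of all 4 lists. In the EpiSC5 OL list these medians were 215 and 266 bp. A single peak from each OL list made up 97.2% of members. The median fold of members was 6.24 in the 129O1 OL list and 7.48 in the EpiSC5 OL list, against 7.77 and 7.87 for regions with a peak in all 4 lists. The −log10 q, the caller's significance, had medians of 10.9 and 17.1 in members and 19.3 and 21.2 in those regions. OPC-only regions had median folds of 6.514 in the 129O1 OPC list and 6.499 in the EpiSC5 OPC list. In the same OPC lists, regions with a peak in all 4 lists had medians of 8.146 and 8.204. A lower fold was thus not particular to members, and the part of the selection rule in it was not tested. Between the 2 OL libraries, fold was higher in EpiSC5 in 75.3% of members, by a median of 0.21 on the log2 scale, against 53.8% and 0.02 for regions with a peak in all 4 lists. In OPC-only regions the OPC lists of the lines were even, with the higher fold in EpiSC5 in 49.7%. The plot of peak folds shows the 129O1 curve shifted to lower values in members, and no such shift in regions with a peak in all 4 lists. Cell line, culture and library are the same factor here and cannot be told apart.

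**Figure D1:**
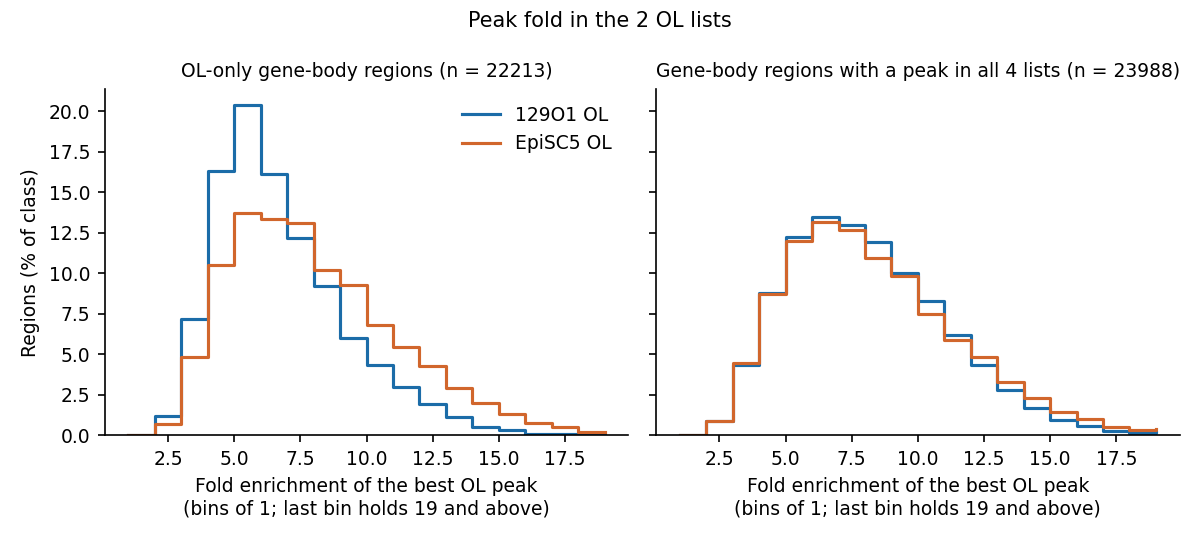
Share of regions (y axis, % of class) by fold enrichment of the best OL peak (x axis, taken as a linear ratio over background, bins of 1) for OL-only gene-body regions (left) and gene-body regions with a peak in all 4 lists (right), 1 line per OL library. The 129O1 line lies to the left of the EpiSC5 line among the OL-only regions, with medians of 6.24 and 7.48, and the lines nearly coincide on the right, with medians of 7.77 and 7.87.

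Both OL libraries placed the members' peaks at the same sites. The distance between the summits of the 2 OL lists had a median of 22 bp, was at most 50 bp in 78.7% of members and at most 100 bp in 95.1%. For regions with a peak in all 4 lists these values were 19 bp, 79.4% and 92.6%. The stretch covered by both OL lists had a median of 159 bp, or 74.3% of a member. Across the 22213 members the Spearman correlation of fold between the OL lists was 0.773, against 0.847 across the 23988 regions with a peak in all 4 lists. The rule required both lists to have a peak, and regions of a library share its depth, so these values describe the overlap and carry no p.

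The members with the tallest peaks were taken by the lower of their 2 OL folds. First was a region in A830018L16Rik at chr1:11830015-11830424, with a fold of 19.7 in 129O1 and 21.9 in EpiSC5. A region of Arhgap15, which encodes a GTPase-activating protein for Rac, at chr2:44326528-44326832 had folds of 18.5 and 21.7. The member of Sox5, a SoxD factor of the OL lineage, at chr6:144705825-144706204 had folds of 18.5 and 22.4 and lay 76.3 kb from the 5′ end of the gene. Tiam1, which encodes a Rac exchange factor, had a region at chr16:89977158-89977454 with folds of 18.6 and 18.3. The other regions among the first 10 lay in Malrd1, Yes1 (a Src family kinase gene), Appl1, Dnajc13, Nup98 and Arl5a, with a lower fold of at least 17.9. Their summits in the 2 lists lay 0 to 28 bp apart. The widest members by sequence under both OL lists lay in Preb, Atrnl1, Tbccd1, Lhcgr, Ptprg, Sash1, Phf12, Snx29, Plpp4 and Prdm15, with 929 to 1499 bp. Their folds, between 4.70 and 10.1, were far below those of the tallest members, and no region was on both lists.

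Members reached down to the threshold that made them. The lower of the 2 OL −log10 q values was under 5 in 1004 members (4.52%) and under 10 in 10663 (48.0%), and the lowest value of a member was 3.06. Just outside the rule, 6166 gene-body regions had a peak in both OL lists and in 1 OPC list, 2163 of them in 129O1 OPCs and 4003 in EpiSC5 OPCs, with a median OPC −log10 q of 8.93. A further 21120 had no OPC peak and a peak in only 1 OL list, 4199 of them in 129O1 and 16921 in EpiSC5. On the other edge of the rule, 676 members had a midpoint less than 1 kb beyond the limit of 1 kb from a gene end, and 564 OL-only regions fell short of that limit by less than 500 bp. Without the 129O1 OL library, the rule applied to the other 3 lists would take 39518 members, and 2499 genes would hold at least 5. Taken within 1 line, 30887 gene-body regions had an OL peak and no OPC peak in 129O1, of which 71.9% were members. In EpiSC5 there were 42041, of which 52.8% were members.

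Most members stood apart from OPC peaks, and a minority sat on their flanks. The nearest OPC peak of either line was a median of 3.66 kb away. It was within 100 bp for 380 members (1.71%), within 500 bp for 2807 (12.6%) and within 1 kb for 4683 (21.1%). Another member was a median of 10.3 kb away, and within 1 kb for 15.9% of members. The nearest region of the same class was a median of 27.5 kb away for OPC-only regions and 11.6 kb for regions with a peak in all 4 lists. OPC-only regions were fewer, and neither distances nor chains were adjusted for the size of a class. Chains of members with gaps of at most 1 kb numbered 1867 and took in 3907 members (17.6%), against 9.72% of OPC-only regions and 15.4% of regions with a peak in all 4 lists. The longest chains had 4 members, and there were 14 of them. They included a stretch of 2.63 kb in Cdc42bpa, which encodes a kinase that acts with Cdc42 on the actin skeleton and 1 of 1.50 kb in the adhesion gene Dscaml1. These 2 genes were singled out after their values were seen.

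Members were scarcer in the first part of genes than the other classes of gene-body region. Strand was known for the hosts of 17459 members, whose median position was 51.4% of the gene's length from its 5′ end, against 48.7% for OPC-only regions and 48.3% for regions with a peak in all 4 lists. With genes cut into 5 equal parts, the part at the 5′ end held 16.6% of members, against 20.3% and 21.5% of those classes, as the plot of positions shows. A listed start of the gene lay within 5 kb of 7.19% of members, 12.8% of OPC-only regions and 19.2% of regions with a peak in all 4 lists. The median distance to a listed start was 42.2 kb for members. Whether a member was exonic or intronic was not analysed here, because the annotation used gives 1 interval per gene. A long noncoding RNA interval held the midpoint of 4.76% of members, against 6.11% and 5.79% of the other classes. On autosomes there were between 18.7 and 25.4 members per Mb of gene sequence, with 6.48 on the X chromosome, where regions with a peak in all 4 lists also numbered only 8.15 per Mb.

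**Figure D2:**
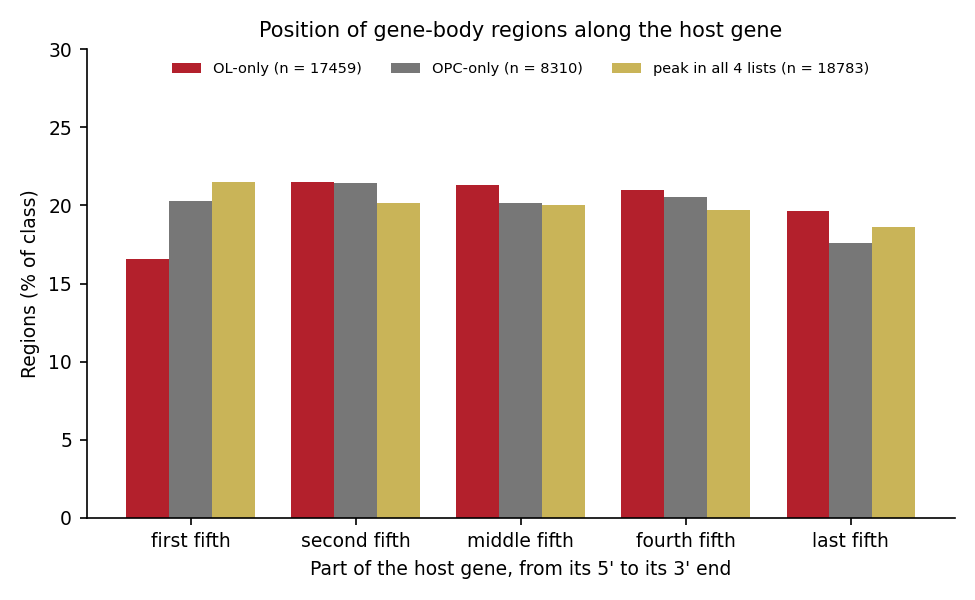
Share of gene-body regions (y axis, % of class) in each of 5 equal parts of the host gene from its 5′ to its 3′ end (x axis), for the regions whose host has a known strand. Bars are OL-only, OPC-only and 4-list regions, and the OL-only bar is the lowest of the 3 in the first part (16.6%) and the highest in the last (19.7%).

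Members were spread over 6972 genes, 36.2% of the 19256 protein-coding genes that have sequence away from gene ends. Of these hosts 2930 held a single member, 1352 held at least 5, 397 at least 10 and 16 at least 30. The 1352 genes with at least 5 members held 55.5% of all members. Long genes were hosts more often, with a member in 4.95% of genes under 10 kb and in 92.3% of genes over 300 kb, and the rank correlation of member count with gene-body length was 0.643 over the 19256 genes. Per 100 kb of gene body, however, the count was 1.57 in the shortest genes, 2.63 in genes of 100 to 300 kb and 1.75 in genes over 300 kb, with 2.24 over all genes. OPC-only regions had a density of 1.09 per 100 kb over all genes. Both kinds of region often shared a host, since 3319 hosts (47.6%) also held an OPC-only region. Among genes with at least 5 members, 1247 held more members than OPC-only regions, 71 held fewer and 245 held no OPC-only region.

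The genes with the most members were large, and several of them were genes of cell adhesion or guidance. Csmd1, a giant membrane protein gene, held 60 members and 7 OPC-only regions, and its body had 15.6 and 9.60 kb under peaks in OPCs of 129O1 and EpiSC5, and 32.6 and 26.8 kb in the OL libraries. Lsamp, an IgLON adhesion molecule gene, held 57, with 18.9 and 19.1 kb in OPCs and 32.0 and 33.7 kb in OLs. Opcml, of the same family, held 51, with 17.2 and 19.4 kb in OPCs and 31.3 and 36.2 kb in OLs. In each of these genes both OL libraries lay above both OPC libraries. Astn2, a gene of neuron-glia adhesion, held 48 members and 9 OPC-only regions, with 9.72 and 8.58 kb in OPCs and 21.7 and 23.4 kb in OLs. Sema5a, which encodes a guidance semaphorin of the OL lineage, held 37 members and 5 OPC-only regions, with 7.79 and 9.09 kb in OPCs and 19.2 and 18.8 kb in OLs. At 8.23 members per 100 kb it was also among the denser of the 15 genes with the most members. Rptor, which encodes the raptor subunit of the mTOR complex, held 30 members in 297 kb of gene, or 10.2 per 100 kb.

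Some genes rich in members had as much open body sequence in OPCs as in OLs. Pde4d, a cyclic AMP phosphodiesterase gene, held 34 members and 17 OPC-only regions, and its body had 24.1 and 23.7 kb under peaks in OPCs and 21.7 and 24.5 kb in OLs, so the groups overlapped. Cdh13, a cadherin gene with 37 members, had 20.9 and 16.9 kb in OPCs and 26.2 and 19.5 kb in OLs, and these too overlapped. In Kirrel3, an immunoglobulin adhesion gene with 36 members, OPCs had 15.04 and 17.0 kb and OLs 16.1 and 18.1 kb. Within each line, however, the OL value of Cdh13 and Kirrel3 was the higher. Nav2 with 39, Ptprg with 35, Elmo1 with 33, Btbd9 with 31 and Sox6 with 31 all had more body sequence under peaks in both OL libraries than in both OPC libraries. Of the 1352 genes with at least 5 members, 976 had more in OLs in both lines, 173 had less in both and 203 were mixed, against 5459, 3759 and 4075 of the 13293 genes with any covered body sequence. The members are themselves part of this coverage.

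**Figure D3:**
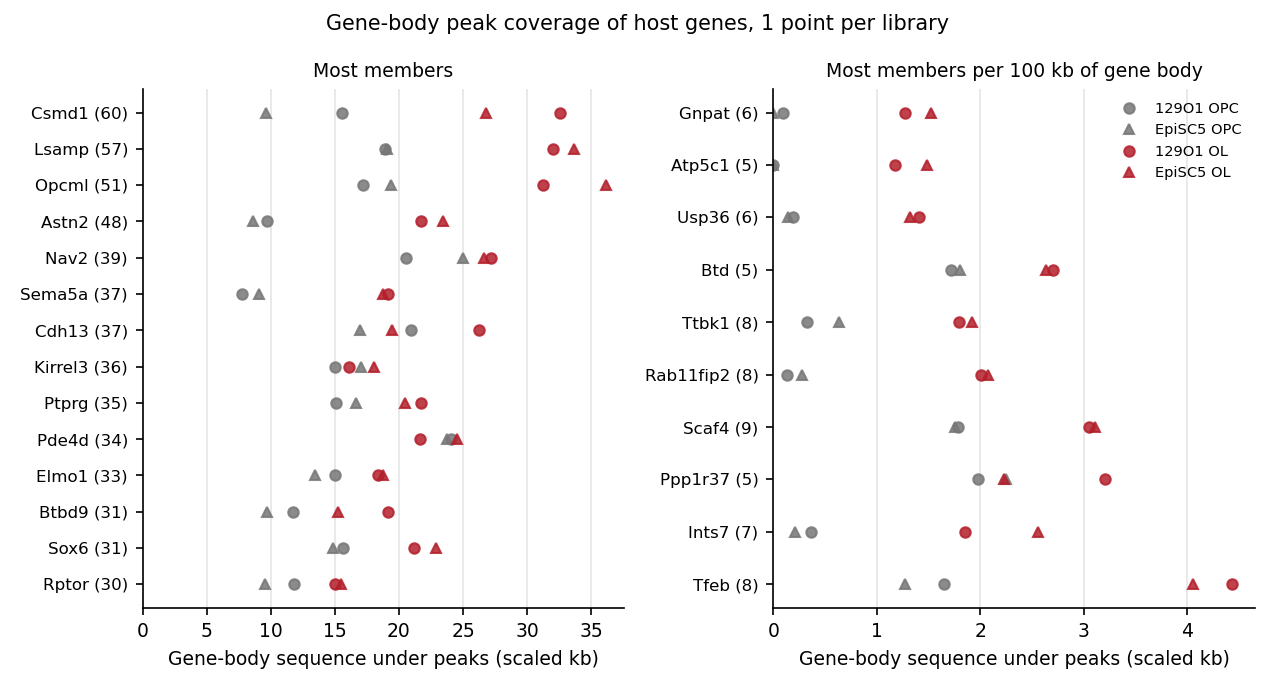
Gene-body sequence under peaks (x axis, kb scaled to the mean list total) in each of the 4 libraries for 14 of the 15 genes with the most members (left) and the 10 with the most members per 100 kb among genes with at least 5 (right), with the number of members in parentheses. Grey marks are OPC and red marks OL libraries, circles 129O1 and triangles EpiSC5. The red marks lie to the right of the grey in most genes, and Pde4d, Cdh13, Kirrel3 and Ppp1r37 are the genes whose groups overlap.

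The genes densest in members were shorter, and several had almost no open body sequence in OPCs. Gnpat, whose product starts the synthesis of the ether lipids that abound in myelin, held 6 members and no OPC-only region, which is 24.0 per 100 kb. Its body had 0.0946 and 0 kb under peaks in OPCs of 129O1 and EpiSC5, and 1.27 and 1.52 kb in the OL libraries. Atp5c1, a subunit gene of the mitochondrial ATP synthase, held 5 members with no OPC peak in its body, and 1.18 and 1.49 kb in OLs. Ttbk1, a tau kinase gene, held 8 members, with 0.325 and 0.634 kb in OPCs and 1.80 and 1.92 kb in OLs. Rab11fip2, a gene of endosome recycling with 8 members, had 0.129 and 0.282 kb in OPCs and 2.01 and 2.07 kb in OLs. Ints7, a subunit gene of the Integrator complex with 7, had 0.366 and 0.213 kb in OPCs and 1.85 and 2.56 kb in OLs. In all of these genes the OL libraries lay well above the OPC libraries. Tfeb, which encodes a regulator of lysosome genes that is known to act in the OL lineage, held 8 members and no OPC-only region, with 1.65 and 1.27 kb in OPCs and 4.43 and 4.05 kb in OLs. Usp36 (6 members), Btd (5), Scaf4 (9) and Ppp1r37 (5) were also among the 10 densest. In Ppp1r37 the groups overlapped, with 1.97 and 2.25 kb in OPCs and 3.21 and 2.23 kb in OLs.

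No OPC peak of either line lay in the body of 740 hosts, 11 of which held at least 4 members. Among them St7l and Wdr11 held 6 each, Atp5c1 and Ttbk2 5 each, and Aida, Ano2, Dio1, Fnip1, Lcorl and Wdr48 4 each. Dio1 encodes a deiodinase that acts on thyroid hormone, and its body of 15.7 kb of gene had 0.792 kb under peaks in 129O1 OLs and 0.656 kb in EpiSC5 OLs. Fnip1 encodes a partner of folliculin in nutrient signalling, with 0.731 and 0.720 kb in OLs. The converse case, OPC-only regions in a body with no OL peak, was met in 375 genes.

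Gene lists of the lineage were read by their counts beside all genes, which held 2.24 members and 1.09 OPC-only regions per 100 kb of gene body. Member density varied with gene length, at 1.57 in genes under 10 kb and 1.75 in genes over 300 kb. The lists were not matched to all genes by length. The lists were drawn up with earlier results of these data known, so no list is independent evidence of its direction. The immature OL list held 1.77 OPC-only regions per 100 kb, which is also above all genes. In members it was the densest of the 15, with 143 in 20 of 26 genes, or 4.21 per 100 kb. That rank did not hold everywhere. Its density was 1.88 times that of all genes, and 1.40 times with only the peaks whose q was better than their list's median, where the immune, cytoskeleton, lipid, OPC identity, transcription factor and myelin lists were denser. Without the 129O1 OL library the myelin list was the denser, at 1.81 against 1.74 times. Its members lay most often in Itpr2, a calcium release channel gene used as a marker of newly formed OLs, which held 29 members and 5 OPC-only regions. The body of Itpr2 had 7.20 and 8.61 kb under peaks in OPCs and 14.1 and 13.7 kb in OLs, with no overlap. Ust, a uronyl sulfotransferase gene, held 15 members and 1 OPC-only region, with 7.06 and 5.16 kb in OPCs and 9.24 and 8.33 kb in OLs. Frmd4a held 22 members beside 16 OPC-only regions, and Fyn, the Src family kinase gene of myelination, 12 beside 11. In both of these the OL libraries were not the higher ones, with 20.9 and 22.1 kb in OPCs and 17.8 and 19.03 kb in OLs for Frmd4a, and 9.71 and 10.7 kb against 9.31 and 9.74 kb for Fyn.

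Genes of myelin and of its lipids also held more members per 100 kb than all genes together. The myelin and mature OL list held 33 members in 14 of 33 genes, or 3.40 per 100 kb, and 1.55 OPC-only regions per 100 kb. Tspan2, which encodes a tetraspanin of myelin, held 5 members and no OPC-only region, with 0.833 and 0.419 kb in OPCs and 2.29 and 1.90 kb in OLs. Opalin, an OL membrane glycoprotein gene, held 3 members in 15.2 kb of gene, with 0.229 and 0.417 kb in OPCs and 0.737 and 0.794 kb in OLs. Both genes had more open body sequence in each OL library than in each OPC library. Mbp, which encodes myelin basic protein, held 5 members and 3 OPC-only regions, with 3.63 and 3.92 kb in OPCs and 4.33 and 6.33 kb in OLs. Pex5l held 6 members and 3 OPC-only regions, with 2.60 and 2.98 kb in OPCs and 2.67 and 3.89 kb in OLs, so its groups overlapped. The lipid and sterol synthesis list held 82 members in 23 of 38 genes, or 3.94 per 100 kb, and 2.07 OPC-only regions per 100 kb. In the myelin and lipid lists OPC-only regions too were denser than over all genes (1.09), so higher density was not particular to members. Acaca, which encodes acetyl-CoA carboxylase of fatty acid synthesis, held 15 members and 2 OPC-only regions, with 4.78 and 3.84 kb in OPCs and 7.50 and 7.61 kb in OLs. Sgms1 held 14 members and 8 OPC-only regions, Agpat4 (an acyltransferase gene) 8 and 3, and the fatty acid elongase gene Elovl7 7 and 5.

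The OPC identity list was not poor in members. It held 259 members in 22 of 30 genes, or 3.03 per 100 kb, and 1.05 OPC-only regions per 100 kb, which is close to the density over all genes. Behind Sema5a and Sox6, with values above, Dscam held 27 members and 11 OPC-only regions, and its body had 13.2 and 13.8 kb under peaks in OPCs and 18.6 and 18.9 kb in OLs. Tnr, which encodes tenascin-R of the extracellular matrix, held 26 and 5, with 10.8 and 9.43 kb in OPCs and 20.5 and 21.5 kb in OLs. Neither gene's groups overlapped. The transcription factor list held 177 members in 25 of 46 genes, or 3.07 per 100 kb, and 2.10 OPC-only regions per 100 kb. Both densities were above those of all genes (2.24 and 1.09). Sox6 held 31 and 12, with 15.6 and 14.9 kb in OPCs and 21.2 and 22.9 kb in OLs. Sox5 held 21 members and 7 OPC-only regions, with 14.7 and 13.4 kb in OPCs and 15.9 and 20.8 kb in OLs. Sox5 and Sox6 are the SoxD factors known to restrain OL maturation. Zfp536, a zinc finger gene, held 14 members and 4 OPC-only regions, and Tcf12, which encodes an E protein partner of Olig factors, 13 and 6.

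**Figure D4:**
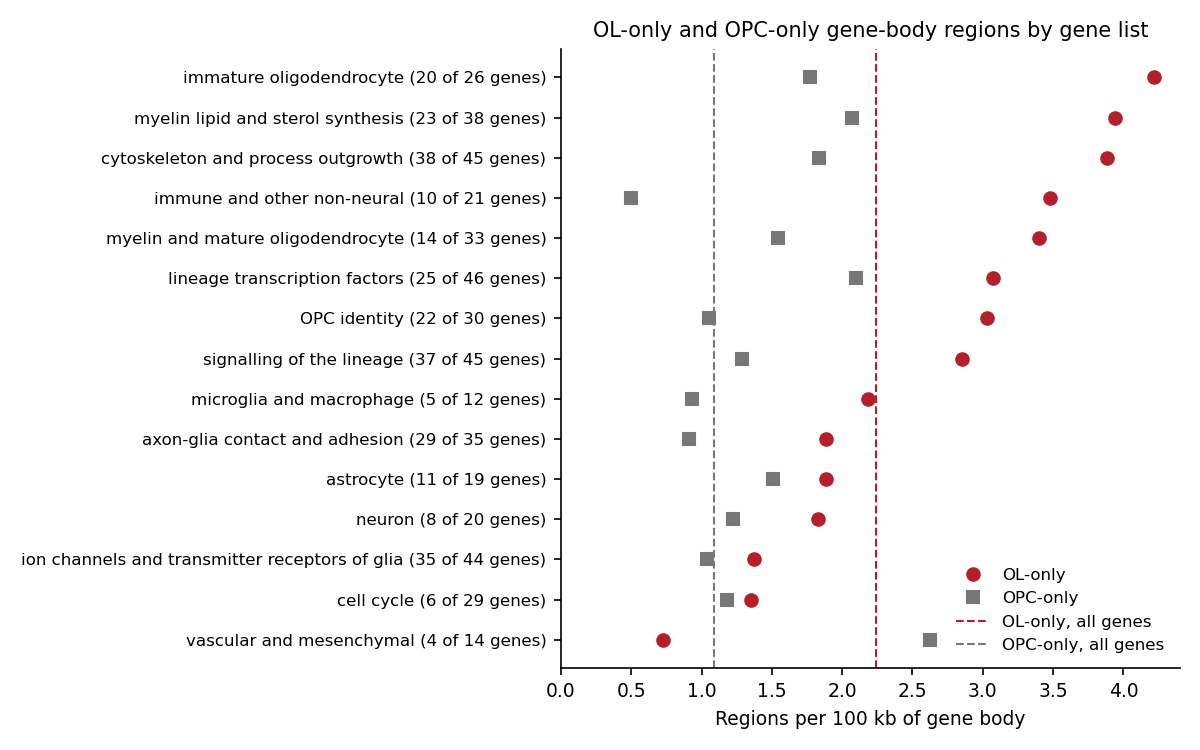
OL-only (red circles) and OPC-only (grey squares) regions per 100 kb of gene body (x axis) for 15 gene lists (y axis, with the number of genes that hold a member out of those with gene-body sequence), and over all protein-coding genes (dashed lines at 2.24 and 1.09). The immature OL, lipid and cytoskeleton lists lie farthest to the right at 4.21, 3.94 and 3.88, and the vascular and mesenchymal list is the one list with more OPC-only than OL-only regions.

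Genes of the cytoskeleton and of process outgrowth held 269 members in 38 of 45 genes, or 3.88 per 100 kb, and 1.83 OPC-only regions per 100 kb. Both densities were above those of all genes (2.24 and 1.09). Elmo1 and Dock4, whose families of proteins act together as activators of Rac, held 33 and 25 members, beside 14 and 13 OPC-only regions. Dock4 had 7.39 and 9.87 kb of body sequence under peaks in OPCs and 12.1 and 11.8 kb in OLs. Epb41l2, a gene of the membrane skeleton, held 15 members and 5 OPC-only regions, with 5.02 and 4.67 kb in OPCs and 8.84 and 9.24 kb in OLs. In both genes the 2 groups stood apart. Dst, which encodes a linker of cytoskeletal filaments, held 20 members and 11 OPC-only regions, with 13.3 and 13.5 kb in OPCs and 13.4 and 14.7 kb in OLs, so the 129O1 OL library lay between the OPC libraries.

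Axon-glia contact and adhesion genes held the most members of any list, 393 in 29 of 35 genes, but in long genes, so that the density was 1.89 per 100 kb. This was below all genes (2.24) but above genes over 300 kb (1.75). Ntm, another IgLON gene, held 29 members and 12 OPC-only regions, with 14.98 and 18.0 kb in OPCs and 19.2 and 22.1 kb in OLs. Signalling genes held 333 members in 37 of 45 genes (2.85 per 100 kb). Among them Pde4b, a cyclic AMP phosphodiesterase gene, held 29 members and 7 OPC-only regions, with 12.7 and 13.6 kb in OPCs and 15.6 and 17.8 kb in OLs. Erbb4, a neuregulin receptor gene, held 24 and 7, with 9.39 and 9.06 kb in OPCs and 14.1 and 13.6 kb in OLs. Ion channel and transmitter receptor genes were below the density of all genes, with 195 members in 35 of 44 genes and 1.37 per 100 kb. Grik2, a kainate receptor gene, held 13 members and 1 OPC-only region, with 4.18 and 3.50 kb in OPCs and 6.24 and 5.84 kb in OLs, whereas Cacna2d3, a calcium channel subunit gene, held 13 and 12. Kcnma1, the gene of a calcium-activated potassium channel, held 15 and 12, with 11.5 and 12.7 kb in OPCs and 10.7 and 10.4 kb in OLs, which puts both OL libraries below the OPC libraries.

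The cell cycle, astrocyte, neuron and vascular lists held fewer members per 100 kb of gene body than all genes (2.24). The microglia and macrophage list was close to all genes, and a list of immune and other non-neural genes was above them. The cell cycle list held 8 in 6 of 29 genes (1.35 per 100 kb), 2 of them in E2f1 and 2 in Cdk6. Its genes were short, with a median gene body of 8.5 kb, and genes under 10 kb held 1.57 members per 100 kb. The astrocyte list held 20 in 11 of 19 genes (1.88), with 4 in Cldn10. The neuron list held 33 in 8 of 20 genes (1.83), with 9 each in Map2 and Syt1, and the microglia and macrophage list 7 in 5 of 12 genes (2.18). The vascular and mesenchymal list held 5 members in 4 of 14 genes (0.729 per 100 kb) and 18 OPC-only regions (2.62 per 100 kb). Its member density was 0.326 times that of all genes, and 0.549 times without the 129O1 OL library. A list of immune and other non-neural genes held 21 members in 10 of 21 genes (3.47 per 100 kb) and 3 OPC-only regions (0.496). Its density was 1.55 times that of all genes, and 2.39 times with only the peaks whose q was better than their list's median. Atp13a5, a transport ATPase gene, held 7 of these, with 0.0916 and 0.301 kb under peaks in OPCs and 1.61 and 2.16 kb in OLs. Tigit, an immune checkpoint receptor gene, held 2 strong members, the better with folds of 14.8 and 16.9, and its body had 0 and 0.106 kb in OPCs and 1.70 and 1.37 kb in OLs. Marco, a scavenger receptor gene of macrophages that stands on both this and the microglia list, held 2, with 0 and 0.196 kb in OPCs and 0.734 and 0.922 kb in OLs. Several genes of this list were picked for it because earlier results of these data had named them.

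The ends of the host genes were looked at separately, since the rule leaves them out. Sequence under peaks within 1 kb of either gene end was scaled to the mean list total and compared on the log2(bp + 200) scale by limma with Benjamini-Hochberg adjustment, over the 12940 genes with a mean of at least 200 bp. It used the libraries and the contrast of the rule, so the counts support nothing about the members. Over all genes tested, coverage was higher in OLs in 225 (1.74%) and lower in 895 (6.92%), which is 8.66% in either direction, at an adjusted p below 0.05. Among the 1142 tested genes with at least 5 members, 12 were higher (1.05%) and 53 lower (4.64%). With cell line as a block, which pairs the libraries, 344 of all genes were higher. Of the genes with at least 5 members, 27 were higher and 97 lower in that fit. The count of all genes lower in it is not given here, so the 97 is not set against all genes. Leaving out 1 library at a time moved the count of lower genes most, to 267 without the 129O1 OPC library, 283 without EpiSC5 OPC and 1435 without 129O1 OL. The count of higher genes went to 128 without 129O1 OPC and 145 without 129O1 OL. Median-of-ratios scaling gave 130 higher and 129 lower over all genes, so the balance of directions depended on the scaling.

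Over the 53 named genes tested the median log2 difference was -0.028, against -0.078 over all genes tested. It was higher in OLs in both lines for 12 of them and lower in both for 23. Signs by line were not counted over all genes, so these counts have no background. The ends of Sema5a had 1.13 and 1.02 kb under peaks in OPCs of 129O1 and EpiSC5, and 1.23 and 1.06 kb in the OL libraries, a log2 difference of 0.08 ± 0.17 (SE, n = 2 per group, limma adjusted p = 0.988). Gnpat had 1.12 and 1.06 kb in OPCs and 1.34 and 1.33 kb in OLs (0.25 ± 0.16, limma adjusted p = 0.494), and Tspan2 0.705 and 0.847 kb against 1.04 and 1.11 kb (0.39 ± 0.18, limma adjusted p = 0.201). In Gnpat and Tspan2 both OL libraries lay above both OPC libraries, and a p that misses the threshold does not show equal coverage. Other hosts had the opposite sign in both lines, with log2 differences of -0.44 in Opalin (limma adjusted p = 0.534), -0.35 in Dst (limma adjusted p = 0.218), -0.31 in Ntm, -0.28 in Kcnma1 and Pde4b, -0.25 in Tnr, -0.24 in Erbb4, and -0.20 in Astn2 and Dock4. These 12 hosts were chosen after their values were seen, and none was called. Of the 53 named genes, limma called 3. Tigit was higher in OLs, with 0.0977 and 0 kb in OPCs and 0.254 and 0.775 kb in OLs (log2 difference 1.45 ± 0.34, limma adjusted p = 0.000867). Lower in OLs were the collagen gene Col1a1, with 0.759 and 0.523 kb in OPCs and 0.324 and 0.270 kb in OLs (log2 difference -0.75, limma adjusted p = 0.0377), and the cell cycle factor gene E2f1, with 1.16 and 1.33 kb against 0.921 and 0.710 kb (-0.51, limma adjusted p = 0.0353). Both of these genes nevertheless held members, 1 in Col1a1 and 2 in E2f1, whose body had no OPC peak. The Col1a1 and E2f1 calls were lost without either OPC library or without the EpiSC5 OL library, with log2 differences of -0.54, -0.95 and -0.67 for Col1a1 and -0.60, -0.43 and -0.36 for E2f1 in the order 129O1 OPC, EpiSC5 OPC, EpiSC5 OL. Without the EpiSC5 OL library Tigit did not reach 200 bp and was not tested, and the other 3 such fits called it. No scaling, median-of-ratios scaling and no filter each lost all 3 calls.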

How the data were processed

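Peaks of 4 Omni-ATAC-seq libraries were used. The submitters' processing notes name, with the build mm10, Bowtie2 2.3.2, MACS2, Picard and Trim Galore 0.3.1. The MACS2 version and threshold, the handling of duplicates, any shift for the Tn5 cut and the order of the steps are not stated in the labels or files. The authors deposited 1 peak list per library, so calling was done library by library. The deposited columns give each peak a start, an end, a score, a fold (taken as a linear ratio to local background), −log10 p and −log10 q values and the offset of its summit, all by the authors' caller. They were used only to describe, rank or filter peaks.

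Depth is unknown, so no counting interval was computed. Lists were merged with Python 3.11.15 and pandas 2.3.3, and genes, starts and sequences came from RefSeq tables for GRCm38.p6. Strand came from the promoter table and was known for 17492 genes. Covered kb is the sequence under a library's peaks, scaled to the mean list total. Gene-end coverage was fitted with limma 3.58.1 in R 4.3.3 (mean-variance trend, two-sided, Benjamini-Hochberg, threshold 0.05), and the fit was tested on simulated data. A log2 difference with 200 bp added understates the change at low coverage. Replicate numbers pair the libraries because number 1 is line 129O1 and number 2 line EpiSC5 in both groups. Over genes, the correlation of the same-numbered deviations from the group means was 0.355 (n = 12940).

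Members and lists were chosen with earlier results of these data known. Named were the 10 members with the highest lower OL fold, the 10 with the most sequence under both OL lists, the 15 genes with the most members, the 10 with the most per 100 kb among genes with at least 5, and up to 4 genes per list. Of the list symbols 1 was not matched, and 1 was a duplicate. A few genes that met these rules are not reported here. Exons, introns and motifs over whole members need a genome, which was not used here. Alternatives changed the peaks kept, the merging, the gene-end distance, the scaling, the pseudocount, the filter, the block and the libraries.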

Additional observations from a re-analysis of the deposited data

Results flagged for a closer look

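In 17 named host genes the gene-end coverage of OLs relative to OPCs had opposite signs in the lines, and this difference between lines was not tested. The values are log2 differences, OL minus OPC, in EpiSC5 minus the same in 129O1. The widest gap was at the kainate receptor gene Grik2, at -0.98, with 0.87 in 129O1 and -0.10 in EpiSC5. P2ry12, a microglial receptor gene, had 0.68, with -0.33 in 129O1 and 0.35 in EpiSC5. Cdk2 had -0.42, with 0.09 in 129O1 and -0.32 in EpiSC5, and Sgms1 had -0.38. Opcml and Pex5l had -0.30 each, and Dscam had -0.23. Ttbk1 had -0.19, Map2, Rptor and Tfeb had -0.18 each, and Grik4 had -0.16. Ints7 had -0.051. The difference was positive for Acaca (0.16), Usp36 (0.074), Rab11fip2 (0.064) and Csmd1 (0.032). With 1 library per line and cell type, none of these values has a replicate.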

How the results depend on the processing

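No log2 difference of a named called gene changed sign, and 260 of the recomputed values stayed within the limits set for the same call, a list density within the 95% Poisson interval of its member count or a count within 1.5 times. Beyond them lay 33 counts and 5 list densities, and 15 values lost a call, all of Col1a1, E2f1 or Tigit. Relative to all genes, 14 of the 15 lists stayed on 1 side of equal density under all 13 alternatives, 8 above and 6 below. The microglia and macrophage list, at 0.975, ranged from 0.791 to 1.08. The immature OL list was the densest in 10 of the 13, the myelin list in 2 and the immune list in 1. With only the peaks whose q was better than their list's median, the density relative to all genes went from 1.88 to 1.40 for immature OL, 1.55 to 2.39 for immune, 1.35 to 1.59 for OPC identity and 0.843 to 0.960 for axon-glia genes, which had 0.935 without the EpiSC5 OL library. The balance of higher and lower gene ends depended on the scaling. With only the peaks whose q was better than their list's median, members numbered 11668 and genes with at least 5 members 566. The 129O1 line alone gave 2068 such genes, and EpiSC5 alone gave 42588 members and 2685 such genes. Leaving out 1 library at a time gave 24435 to 39518 members and 1494 to 2499 such genes, the highest without 129O1 OL.

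At gene ends, limma called 1120 genes, 259 with median-of-ratios scaling and 588 with no filter on low coverage. Genes higher in OLs numbered 225, with 116 under no scaling, 130 under median-of-ratios scaling and 417 within 2 kb of gene ends. Genes lower in OLs numbered 895, with 129 under median-of-ratios scaling and 418 with no filter. Among genes with at least 5 members, 12 were higher and 53 lower. Within 2 kb these counts were 32 and 85, and lower genes numbered 104 with no scaling, 10 with median-of-ratios scaling and 21 with no filter. The replicate block for cell line, which pairs the libraries, gave 344 higher genes over all genes tested, and 27 higher and 97 lower among genes with at least 5 members. Where no count over all genes is given beside them, such counts do not set the hosts against all genes. Leaving out 1 library gave 395 to 1580 genes called, 128 to 188 higher and 267 to 1435 lower, and among genes with at least 5 members 8 to 14 higher and 20 to 106 lower. The lone library of a group is then assumed to vary like the other group. The cause of these shifts was not tested.

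The planned comparison of motif windows needs a genome and was not run. The members' OPC signal below the caller's threshold was not analysed here.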

Other observations

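A few members lay at starts of noncoding genes or of genes other than their host. There were 42 of them (0.189% of members), against 0.558% of OPC-only regions and 1.28% of gene-body regions with a peak in all 4 lists. Gm35463 starts inside Eml5, and the member there, at chr12:98802256-98802528, had folds of 13.5 in the 129O1 OL list and 16.3 in the EpiSC5 OL list. Gm15713 starts inside Zbtb20, a zinc finger repressor gene, and its member at chr16:43420027-43420268 had folds of 9.15 and 15.2. Gm31623 starts inside the DNA methyltransferase gene Dnmt3a, at a member with folds of 5.56 and 8.02, and 9130015G15Rik inside Nav2, at one with folds of 4.92 and 5.74. The EpiSC5 fold was the higher at each of these 4 members, which were singled out after their values were seen.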
